A study of Arabidopsis thaliana with 2 samples.

Results

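The histone genes of Arabidopsis thaliana measured here were 39 genes, taken by their locus identifiers from the 36917 gene identifiers of the count tables. They comprised 5 H3.1 genes, 3 H3.3 genes, 1 gene of the centromeric histone CENH3, 8 H4 genes, 4 canonical H2A genes, 2 H2A.X genes, 3 H2A.W genes, 3 H2A.Z genes, 7 H2B genes and 3 genes of the linker histone H1. Their transcripts were counted in single nuclei of young flowers with the genotype pAP1:AP1-GR ap1-1 cal-1 (Landsberg erecta background). In this line the AP1 promoter drives AP1 fused to a glucocorticoid receptor domain, so that flowers form together once dexamethasone is given. About 20 inflorescences were pooled for each sample after treatment with 2 μM dexamethasone, and DAPI-stained nuclei were sorted and loaded on the 10x Chromium 3′ system. There was 1 library at day 3 (stage 4 flowers) and 1 at day 4 (stage 5 flowers), and both groups carried the same transgene, mutations and agent. The collection day in the treatment notes is the fourth for either sample, so that the day 3 group rests on the title of its sample. The day 3 library was made with 11 cycles of cDNA amplification and 14 of library amplification and sequenced on a NovaSeq, the day 4 library with 14 and 13 cycles on a HiSeq instrument. Day, amplification and sequencer cannot be told apart.

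Nucleosomes are built from histones H2A, H2B, H3 and H4, with H1 bound to the linker DNA between them. The replication-coupled histones (here H3.1, H4, canonical H2A and H2B) package newly copied DNA and are made mainly in S phase, whereas the replacement variants H3.3 and H2A.Z are put into chromatin also outside replication, H3.3 along transcribed genes and H2A.Z at gene starts. H2A.W is the variant of plant heterochromatin, H2A.X carries the site that is phosphorylated at DNA breaks, and CENH3 marks centromeres. In plants the messages of replication-coupled histones are polyadenylated, unlike most of those in animals, so that a library primed on poly(A) can count them. Floral meristems hold many dividing cells beside cells that have begun to differentiate.

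Nuclei were kept when at least 1000 nuclear genes were detected, which gave 4397 nuclei with 11083512 UMIs (unique molecular identifiers, each counting 1 captured transcript) at day 3 and 4545 nuclei with 10202530 UMIs at day 4. The median depth was 1842 and 1805 UMIs per nucleus, and 6 barcodes occurred in both libraries. The nuclei were grouped into 22 joint clusters without the use of any histone gene, and the floral meristem-like cluster passed for 8 genes of its marker list. Cluster 9, which got no name, stood apart: 263 of its 282 nuclei came from day 3, where it held 5.98% of the nuclei and 12.1% of the UMIs at a median of 3561 UMIs per nucleus. Since its level of replication-coupled transcripts was 11168 CPM (UMIs of the genes per 1000000 nuclear UMIs) at day 3, the sums and counts that compare the days are given with and without it, and single genes with all nuclei unless stated. With 1 library per day the differences have no replicate check and no test was made, and all intervals are exact 95% intervals that cover counting error only.

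The histone promoters are shown first, since some short motifs lie in a larger share of them than of all promoters. The octamer CGCGGATC, known as an element of plant histone promoters, was searched on both strands from 250 bases before to 50 bases after each gene's start in the RefSeq annotation of TAIR10.1, the Columbia reference and not the Landsberg erecta genome of the plants. It lay in 10 of 39 histone promoters and in 40 of the 27443 promoters of nuclear protein-coding genes (0.146%), so that histone genes were 25% of all genes with it. All 12 matches were upstream of the start, from 10 to 126 bases away with a median distance of -72.5 bases, 8 as written and 4 as the reverse complement. The windows below give 10 bases on either side of the 8 matches as written, with the match in capitals. They lie in 3 H3.1 genes, 2 H4 genes and 1 gene each of canonical H2A and H2A.W. The 4 reverse complement matches, in AT4G40040 (H3.3), AT1G06760 (H1), HTA13 and, as a second match, HTA10 (both canonical H2A), are not shown.
AT1G09200 (H3.1, chr1:2972407-2972434, minus strand): cgtaccttcaCGCGGATCagtgttagaa
AT1G09200 (H3.1, second match, chr1:2972336-2972363, minus strand): tgtgatttcaCGCGGATCgtgatagaaa
AT5G65360 (H3.1, chr5:26120690-26120717, minus strand): ttagacgtgaCGCGGATCactaaaatta
AT5G10400 (H3.1, chr5:3271060-3271087, minus strand): taacacaggaCGCGGATCgtaaagatac
AT1G07660 (H4, chr1:2368697-2368724, plus strand): acagatttcaCGCGGATCgcaatcttgg
AT5G59690 (H4, chr5:24051393-24051420, plus strand): actgccatcaCGCGGATCactaatatga
AT1G51060 (HTA10, canonical H2A, chr1:18926727-18926754, plus strand): ttcactctgaCGCGGATCctgaatctcg
AT5G59870 (HTA6, H2A.W, chr5:24116319-24116346, minus strand): tacatagtcaCGCGGATCgtgctttatt

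The octamer was found in 3 of 5 H3.1 genes, 2 of 8 H4 genes, 2 of 4 canonical H2A genes, 1 of 3 H3.3 genes, 1 of 3 H2A.W genes and 1 of 3 H1 genes. None of the 7 H2B promoters held it. They held the hexamer ACGTCA, another element known from histone promoters, in 7 of 7 genes with 8 matches, all of them as written, against 2522 of all promoters (9.19%). The only match of HTB4 lay 40 bases after the gene's start and 1 of the 2 matches of HTB2 lay 2 bases after it. The other H2B matches were upstream. Outside H2B the hexamer lay in 2 of 5 H3.1 genes, 1 of 3 H3.3 genes and 1 of 8 H4 genes, 11 of the 39 promoters in all, and the H3.1 gene AT5G10400 held both motifs. Several of the H2B matches were followed after 3 bases by ATCC, a pattern noticed on reading the windows. Those of the upstream matches are shown here for that reason, with the hexamer in capitals.
AT1G07790 (HTB1, chr1:2412897-2412922, plus strand): agaaatatacACGTCAatgatcctcg
AT5G22880 (HTB2, chr5:7652894-7652919, minus strand): aaaagtaaccACGTCAgctatccacg
AT3G45980 (HTB9, chr3:16898154-16898179, minus strand): caatattgacACGTCAtcgatcccgc
AT3G46030 (HTB11, chr3:16914204-16914229, minus strand): aatatattccACGTCAtcaatcctcg
AT3G53650 (H2B, chr3:19889191-19889216, plus strand): gatggatgacACGTCAtcgatccgca
AT2G28720 (H2B, without the extension, chr2:12326748-12326773, plus strand): aacgtgatccACGTCAccaacgatac

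The longer form ACGTCANNNATCC, chosen after these windows had been seen, lay in 5 of 7 H2B promoters and in 32 of all 27443 promoters (0.117%). It was also present in 1 H3.3 promoter (AT5G10980) and in 1 H4 promoter (AT1G07820). The sites bound by E2F factors of the cell cycle (TTTCCCGC, TTTCGCGC, TTTGGCGC and TTTGCCGC, on both strands) were found in 3 of 39 histone promoters against 1.76% of all promoters, with 2 of the 3 in H4 genes and 1 in an H2B gene. The 2 H4 promoters, of AT3G46320 and AT3G45930, are nearly identical over the window and hold the same site 237 bases before the start. They are therefore not separate finds. The H2A.Z, H2A.X and CENH3 promoters held none of the octamer, hexamer or E2F letters in this window. Single promoters of other groups also held none, such as those of AT5G10390 (H3.1), HIS4 and AT3G53730 (H4). A match describes the letters only.

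Some groups encode a single protein from many genes. The 5 H3.1 genes encode 1 protein of 136 residues and the 8 H4 genes 1 protein of 103 residues, whereas the 7 H2B genes encode 7 proteins that are 80.7 to 97.3% identical. Canonical H2A proteins share 92.4 to 95.4% of their residues with each other and 52.0 to 56.0% with H2A.Z. H3.1 is up to 97.1% identical to H3.3 and 43.8% identical to CENH3. Coding sequences were less alike, and over the last 500 bases of the transcripts, where 3′ reads fall, 9 of 39 genes shared any run of 60 bases with another member. The share was above 10% of that stretch for 4 genes and at most 25.7%, for AT1G07660 with its H4 relative AT1G07820, whose separate levels are therefore less certain. AT3G27360 overlaps another gene on the same strand and 7 members overlap one on the opposite strand.

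Histone transcripts were less abundant at day 4, most clearly those of H2B and H3.1. Summed over all 39 genes, they made up 9796 CPM at day 3 and 7492 CPM at day 4, a log2 ratio of -0.39. The 24 replication-coupled genes were at 6333 CPM at day 3 and 4479 CPM at day 4 (log2 ratio -0.50, interval -0.52 to -0.48), and the 6 replacement genes at 1479 and 1241 CPM (-0.25). The log2 ratio was -0.72 for H2B and -0.67 for H3.1. Without cluster 9 it was -0.25 for all 39 genes, -0.53 for H2B and -0.48 for H3.1. Fewer nuclei with these transcripts and fewer transcripts per nucleus cannot be told apart in such sums.

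**Figure D1:**
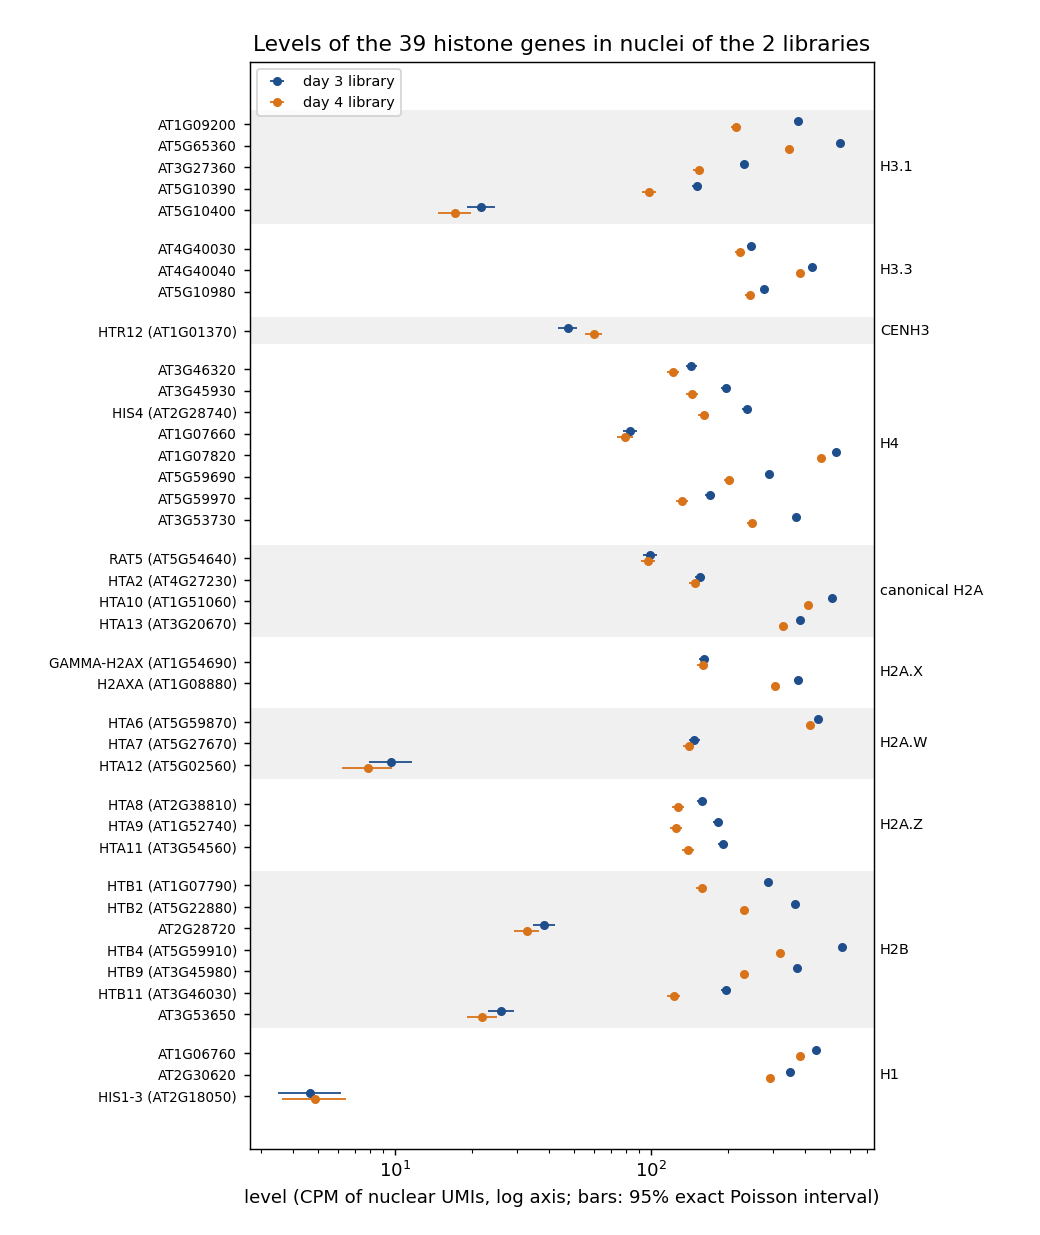
Level of each of the 39 histone genes at day 3 and day 4, in CPM of the summed nuclear UMIs on a log axis, by histone group, with 1 library per day and bars for the exact 95% counting interval. All H3.1 and H2B genes sit lower at day 4, whereas HTR12, the CENH3 gene, sits higher at 59.8 against 47.5 CPM.

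A gene was called past the fold when its log2 ratio lay 0.5 or more from the median of the 14740 genes with at least 200 UMIs over both libraries, a median of 0.08. By this measure 15 of the 37 histone genes with that many UMIs fell from day 3 to day 4, where 8.26% of all genes did, and 0 rose, where 4.38% of all genes did. HTA12 (H2A.W) and HIS1-3 (H1) stayed under 200 UMIs. The 15 genes were 4 of H3.1, 4 of H4, 2 of H2A.Z and 5 of H2B. Without cluster 9 the median of all genes was 0.06, which puts the lower limit at -0.44 in place of -0.42. Then 6 genes fell, 2 of H3.1 (AT1G09200 and AT3G27360) and 4 of H2B (HTB1, HTB2, HTB4 and HTB9), against 5.15% of all genes. At the limit of -0.42, 9 genes passed without cluster 9, with AT5G65360, HTB11 and HIS4 besides, against 5.98% of all genes. The summed log2 ratio of the replication-coupled genes was then -0.35 and that of the replacement genes -0.07.

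**Figure D2:**
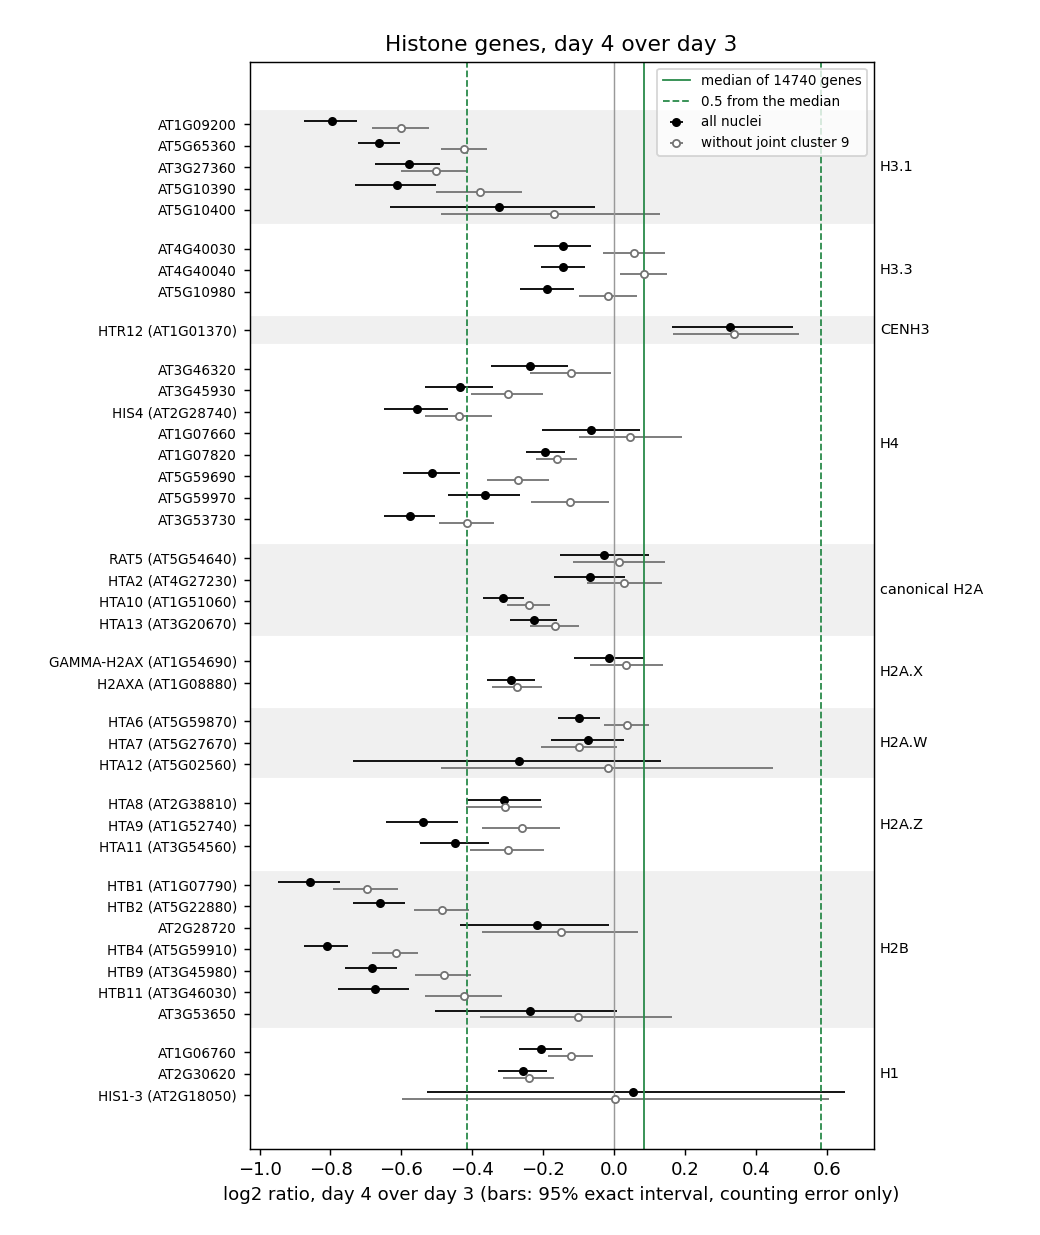
Log2 ratio of day 4 over day 3 for each histone gene with all nuclei and without cluster 9, with exact 95% counting intervals and the limits of the fold at -0.42 and 0.58. The 15 genes past the drawn lower limit with all nuclei are members of H3.1, H4, H2A.Z and H2B, and 9 genes lie past it without cluster 9.

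Among the H3.1 genes, AT5G65360 was the highest, at 548 CPM at day 3 and 346 CPM at day 4 (log2 ratio -0.66). AT1G09200 fell from 374 to 215 CPM (-0.80) and AT3G27360 from 231 to 154 CPM (-0.58). AT5G10390 fell from 151 to 98.7 CPM (-0.61). The order of the 5 genes by level was the same on both days, and AT5G10400, the lowest at 21.7 and 17.2 CPM, was the one that did not pass the fold. Since UMIs count transcripts from their 3′ ends, these levels do not scale with transcript length.

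The H2B genes HTB1 and HTB4 had the largest differences of all 39 genes. HTB4, the highest, fell from 559 to 319 CPM (log2 ratio -0.81), HTB1 from 286 to 158 CPM (-0.86), and HTB2 from 367 to 232 CPM (-0.66). HTB9 went from 372 to 231 CPM (-0.68) and HTB11 from 196 to 123 CPM (-0.67), both past the fold. The remaining members were low: AT2G28720 had 38.3 and 32.7 CPM and AT3G53650 had 26.1 and 22.0 CPM, with log2 ratios of -0.22 and -0.24 that did not pass. HTB5 (AT2G37470), an H2B gene outside the 39, was at 167 CPM at day 3 and 94.2 CPM at day 4 (-0.82, and -0.67 without cluster 9), past the fold either way.

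H4 was the most abundant group, with 2014 CPM at day 3 and 1548 CPM at day 4 (log2 ratio -0.38). Of its genes, 4 fell past the fold, AT3G53730 (-0.58), HIS4 (-0.56), AT5G59690 (-0.51) and AT3G45930 (-0.43). AT3G53730 went from 369 to 247 CPM, HIS4 from 236 to 160 CPM, AT5G59690 from 288 to 201 CPM and AT3G45930 from 196 to 145 CPM. The highest H4 gene, AT1G07820, had 527 and 461 CPM, and the lowest, AT1G07660, had 83.1 and 79.4 CPM (log2 ratio -0.06, interval -0.20 to 0.07). With all nuclei the log2 ratio was below 0 for all 8 genes, which encode the same protein. The limit of -0.42 parted genes of close ratio, such as AT3G45930 and AT5G59970 (-0.37, interval -0.47 to -0.27). Without cluster 9 the H4 sum had a log2 ratio of -0.25 and none of the 8 genes passed the limit computed without it, with HIS4 just short of it and AT3G53730 at -0.42.

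None of the 4 canonical H2A genes passed the fold. HTA10, the highest, had 511 CPM at day 3 and 411 CPM at day 4, and RAT5, the lowest, whose loss is known to hamper transformation by Agrobacterium, had 99.2 and 97.3 CPM. The group's log2 ratio was -0.22 (-0.15 without cluster 9), against -0.72 for H2B, with which H2A pairs as a dimer. The ratio of H2B to canonical H2A transcripts was 1.61 at day 3 and 1.13 at day 4. Cluster 9 had the highest ratio of the 22 clusters at day 3, at 2.33. Without it H2B was at 1600 and 1105 CPM and canonical H2A at 1094 and 982 CPM.

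Of the replacement variants, H2A.Z held genes that fell past the fold and H3.3 held none. The 3 H3.3 genes were at 947 and 849 CPM together (log2 ratio -0.16), from AT4G40030, the lowest, at 245 and 222 CPM to AT4G40040, the highest, at 424 and 383 CPM. Of the H2A.Z genes, HTA9 fell from 183 to 126 CPM (-0.54) and HTA11 from 191 to 140 CPM (-0.45), whereas HTA8 was at 158 and 127 CPM (-0.31). Without cluster 9, the H2A.Z sum had a log2 ratio of -0.29 and none of its genes passed the fold, and H3.3 had a log2 ratio of 0.05.

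The heterochromatin variant H2A.W came mainly from HTA6, at 448 CPM at day 3 and 418 CPM at day 4, while HTA12 had 9.65 and 7.84 CPM. Of the H2A.X genes, H2AXA was at 375 and 306 CPM and GAMMA-H2AX at 161 and 160 CPM. HTR12, the CENH3 gene, was the one gene of the 37 with a ratio above 0, at 47.5 and 59.8 CPM (log2 ratio 0.33, interval 0.16 to 0.50), short of the fold. Among the linker histones AT1G06760 had 442 and 383 CPM and AT2G30620 had 349 and 292 CPM, whereas HIS1-3, a drought-inducible H1, had 4.69 and 4.90 CPM. As sums, H2A.X, H2A.W and H1 had log2 ratios of -0.20, -0.10 and -0.23. Without cluster 9, H2A.X was at -0.18 and H1 at -0.17, H2A.W had 565 CPM on both days, and CENH3 was at 0.34.

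To relate histone transcripts to S phase, nuclei were sorted by the number of genes detected out of 20 replication genes (such as those of the MCM helicase, PCNA and ribonucleotide reductase), after each nucleus had been thinned at random to 1000 UMIs. At least 2 of these genes were seen in 1373 nuclei at day 3 and 1232 at day 4, and 0 in 1735 and 2066 nuclei. Median depth was close between them, 1836 against 1823 UMIs at day 3 and 1751 against 1822.5 UMIs at day 4. Replication-coupled transcripts stood at 7855 CPM in the nuclei with at least 2 replication genes and 4888 CPM in those with 0 at day 3 (1.61-fold, 1.58 to 1.64). At day 4 they stood at 6057 and 3417 CPM (1.77-fold, 1.73 to 1.81). The replication genes themselves, on which the classes rest, differed 6.44- and 10.65-fold. Without cluster 9 the replication-coupled folds were 1.57 and 1.77.

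The level was higher with more replication genes, though not at every step. From 0 to 5 or more replication genes, replication-coupled transcripts went from 4888 to 9883 CPM at day 3 and from 3417 to 6996 CPM at day 4, with 8137 CPM at 3 and 7780 CPM at 4 genes at day 3. H3.3 showed no such rise. It was at 890 CPM with 0 and 703 CPM with 5 or more replication genes at day 3, and at 819 and 688 CPM at day 4. Its highest level, 1051 and 918 CPM, was at 2 replication genes. Between nuclei with at least 2 and with 0 of them, the median fold of the 3 H3.3 genes was 1.00 at day 3 and 1.02 at day 4. Nuclei were also sorted by 20 G2/M genes (mitotic cyclins, CDC20.1, CDC20.2 and others). The highest of these were CDC20.1, at 1821 CPM at day 3 and 1090 CPM at day 4, and CDC20.2, at 1413 and 955 CPM. KNOLLE came next at 262 and 212 CPM, so that these classes lean on CDC20 detection. In nuclei with at least 2 G2/M genes and fewer than 2 replication genes, replication-coupled transcripts were at 5157 CPM at day 3 and 2875 CPM at day 4. In the 564 and 826 nuclei with no gene of either list they were at 5610 and 3943 CPM, so that nuclei with G2/M genes had the lower level on both days.

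**Figure D3:**
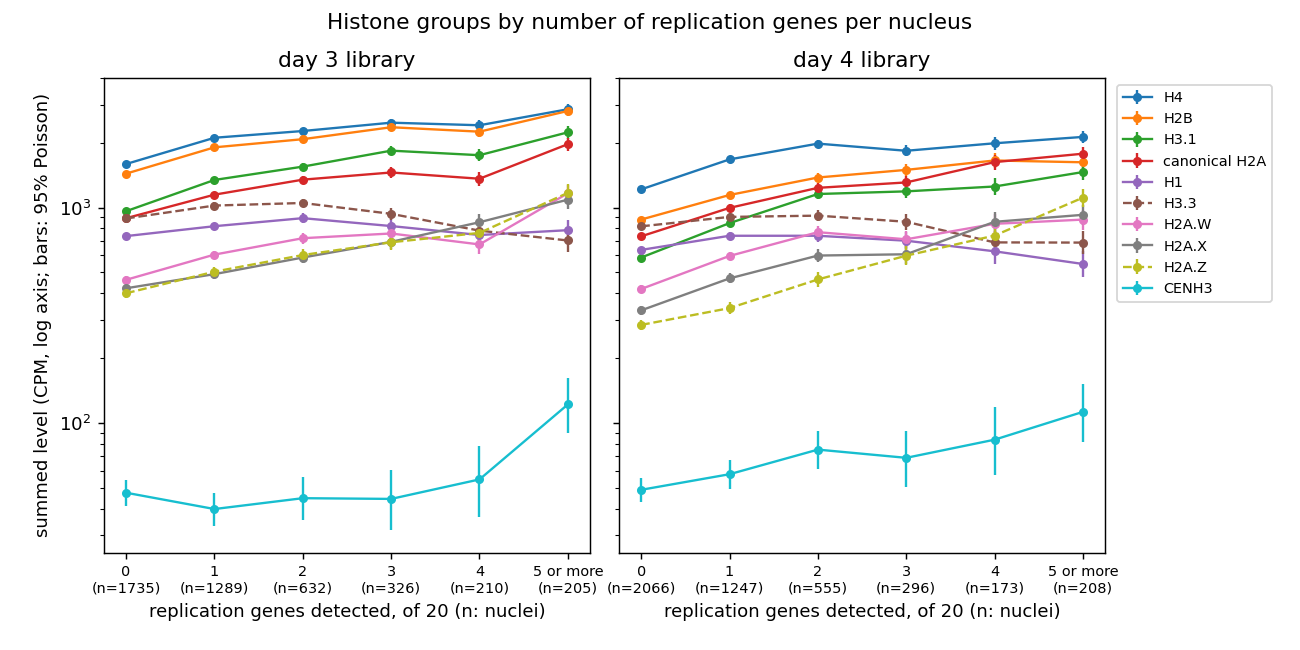
Level of the histone groups, in CPM on a log axis, in nuclei with 0, 1, 2, 3, 4 and 5 or more of the 20 replication genes at 1000 UMIs, for each day, with exact 95% counting intervals. H3.1, H4, canonical H2A, H2B and H2A.Z are higher at 5 or more than at 0 replication genes on both days. H3.3 is lower there, at 703 against 890 CPM at day 3, but has its highest level at 2 replication genes.

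Single histone genes followed this order to very different degrees. A gene at least 2-fold higher in nuclei with at least 2 replication genes than in those with 0 was counted, which held for 4 of 37 histone genes at day 3, where 1.12% of all genes did, and for 9 at day 4, where 1.38% did. The median over all genes was a fold of 1.00 on both days. At day 3 the 4 were HTA8 (2.75-fold), AT5G10390 (2.25-fold), AT5G10400 (2.17-fold) and GAMMA-H2AX (2.17-fold). At day 4, HTA8 reached 4.17-fold, AT5G10390 3.34-fold and GAMMA-H2AX 2.91-fold, with AT5G65360, AT3G46320, AT3G45930, HTA13, HTA11 and HTB2 between 2.16- and 2.42-fold. AT5G10400, a gene of few UMIs, was 1.38-fold at day 4. Without cluster 9 the genes so counted were 5 and 10. The day 3 count moved with the settings: it was 1 at a minimum of 1500 genes per nucleus, 9 when at least 3 replication genes were asked for or the 8% deepest nuclei left out, and 10 when replication genes were counted before thinning, where the day 4 count was 15.

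The H2A.Z genes thus split, although the group is counted with the replacement variants. HTA8 was 2.75-fold (2.44 to 3.11) and 4.17-fold (3.63 to 4.79) higher in nuclei with at least 2 replication genes at day 3 and day 4, and HTA11 was 1.90- and 2.42-fold higher. HTA9 was at 1.14- and 1.03-fold. The proteins of HTA8 and HTA11 are the closer pair, 90.4% identical, against 83.8% for HTA9 with HTA11 and 79.4% for HTA8 with HTA9. The 3 H3.3 genes stayed between 0.88- and 1.22-fold on both days. H1 as a group was at 1.14- and 1.08-fold in this comparison.

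The remaining variants differed among themselves. H2A.X was 1.68-fold higher at day 3 and 2.05-fold at day 4, H2A.W 1.68- and 1.87-fold. CENH3 was 1.16- and 1.64-fold higher, and it reached 122 CPM at day 3 and 113 CPM at day 4 in nuclei with 5 or more replication genes, from 47.4 and 48.9 CPM in those with 0.

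Cluster 6 gave a second view, since it was called replication-like from 18 markers and used no histone gene. It held 166 nuclei at day 3 and 159 at day 4. Replication-coupled transcripts reached 14503 CPM there against 6059 CPM in all other nuclei at day 3 (2.39-fold), and 15898 against 4089 CPM at day 4 (3.89-fold), and with cluster 9 left out of the other nuclei the folds were 2.72 and 3.92. At least 2-fold higher in this cluster were 23 of 37 histone genes at day 3 and 31 at day 4, against 3.07% of all genes on either day, and without cluster 9 they were 26 and 31. Of the replication-coupled genes 16 of 24 passed at day 3 and 23 of 24 at day 4.

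The same H2A.Z split appeared in cluster 6. HTA8 was 4.17-fold higher there at day 3 and 6.70-fold at day 4, and HTA9 was at 0.82- and 0.89-fold. HTA8 stood at 597 CPM in the cluster at day 3 and 718 CPM at day 4, HTA11 at 555 and 572 CPM (4.57-fold higher than elsewhere at day 4), and HTA9 at 150 and 113 CPM. GAMMA-H2AX (3.59- and 5.85-fold), AT5G10390 (3.18- and 6.46-fold) and HTA6 (2.84- and 4.23-fold) were among the other high members. H3.3 as a group was at 0.96- and 1.33-fold, of which AT5G10980 alone passed 2-fold at day 4, at 2.08-fold. The 2 H1 genes with at least 200 UMIs were 1.29- and 2.06-fold higher in cluster 6 at day 3. At day 4 they were 1.77- and 1.78-fold higher, all on CPM with 1 added.

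Across the 22 clusters, replication-coupled transcripts varied more than those of H3.3. They ranged from 2155 CPM in cluster 4, cortex and mesophyll-like, to 14503 CPM in cluster 6 at day 3, a 6.73-fold range, and 9.89-fold at day 4 between the same clusters. H3.3 ranged 3.35- and 3.39-fold. By class, the G2/M-like nuclei were lowest at 3207 CPM at day 3 and 2250 CPM at day 4. Cortex and mesophyll-like nuclei had 4230 and 3159 CPM, epidermis-like nuclei 4688 and 3496 CPM, vascular-like nuclei 5182 and 5333 CPM, and floral meristem-like nuclei 7429 and 5985 CPM.

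The difference between floral meristem-like and cortex and mesophyll-like nuclei was also seen in nuclei with no replication and no G2/M gene detected. Among these, replication-coupled transcripts stood at 8517 CPM in floral meristem-like and 3973 CPM in cortex and mesophyll-like nuclei at day 3, and at 6739 and 3374 CPM at day 4. A lack of detected replication genes does not place a nucleus outside S phase, since these genes were sparsely counted. Even of the nuclei with 10 or more replication-coupled UMIs after thinning, 44.2% at day 3 and 41.6% at day 4 had at least 2 of them. Whether the difference between the classes is independent of the cell cycle was therefore not tested. Class names were not uniform in level: cluster 15, named cortex and mesophyll-like on 3 markers, had 7691 and 7112 CPM. CENH3 had its highest cluster levels in cluster 11, G2/M-like, at 92.2 CPM (69.3 to 120.3) at day 3 and in cluster 18, of mixed G2/M and epidermis markers, at 164 CPM (95.4 to 262) at day 4, the latter from 17 UMIs.

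**Figure D4:**
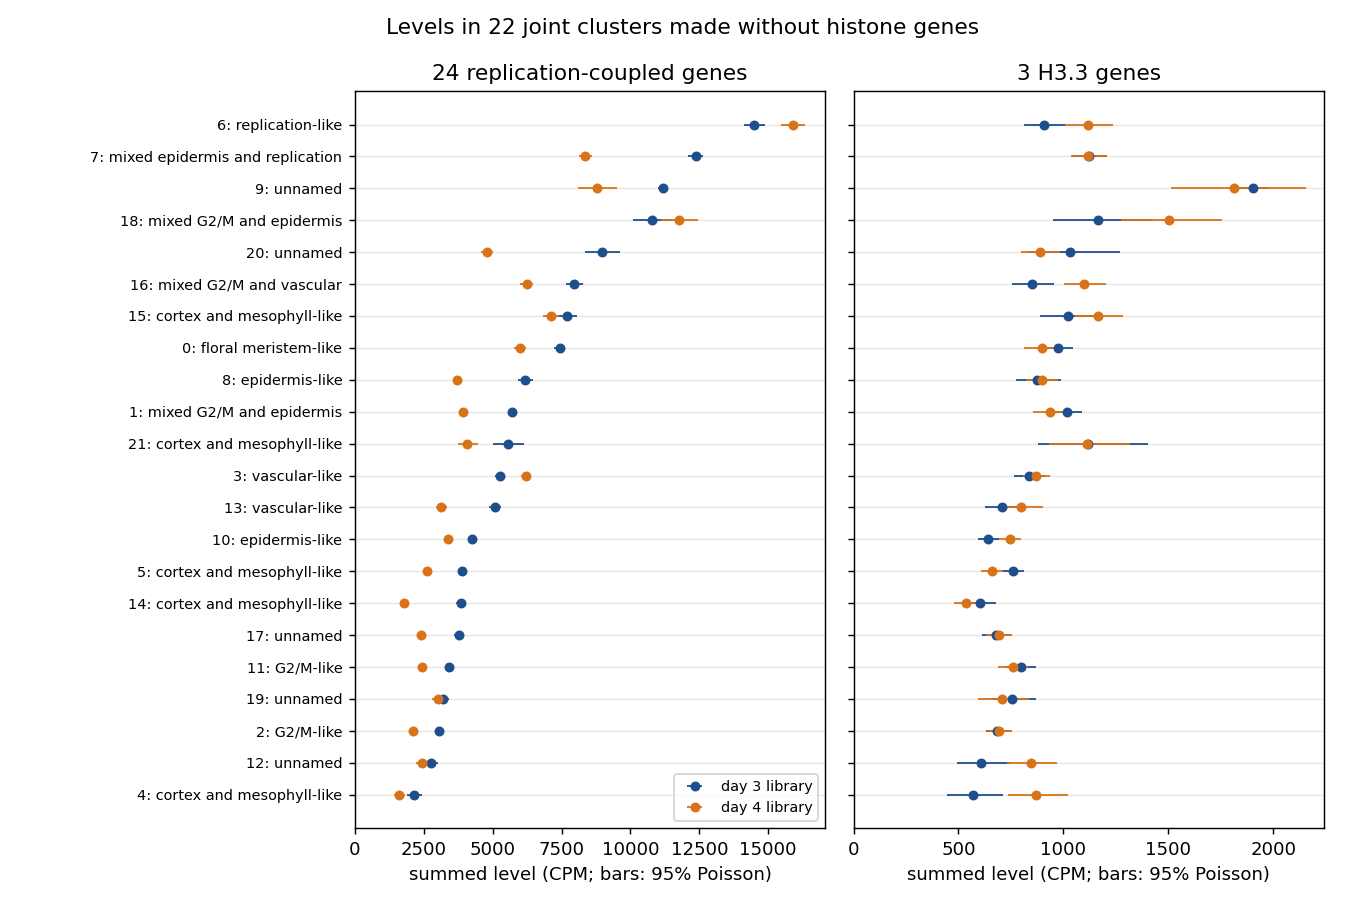
Level of replication-coupled and H3.3 transcripts in each of the 22 joint clusters at day 3 and day 4, in CPM, with exact 95% counting intervals. Cluster 6, replication-like, stands at the top for the replication-coupled genes, at 14503 and 15898 CPM, and cluster 4 at the bottom at day 3, at 2155 CPM.

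The day difference was taken up again within clusters, which compares nuclei of like profile. The replication-coupled sum was lower at day 4, with an interval below 0, in 17 of 22 clusters and higher, with an interval above 0, in 3, the replication-like cluster 6, the vascular-like cluster 3 and cluster 18. H3.1 and H2B were lower by the same measure in 16 and 17 clusters and higher in 0. H3.3 was lower in 1 cluster and higher in 5. These intervals treat UMIs as independent and leave out the spread between nuclei, so that they are too narrow. Cluster 18, for example, held 39 nuclei at day 3 and 51 at day 4. When the day 4 clusters were weighted by their day 3 shares of UMIs, the log2 ratio was -0.35 for the replication-coupled genes, -0.50 for H2B, -0.49 for H3.1 and 0.01 for H3.3.

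The balance between groups also differed between the libraries. H3.1 was lower relative to H4 at day 4 in 22 of 22 clusters, with a ratio of 0.658 over all nuclei at day 3 and 0.537 at day 4. Without cluster 9, H3.1 was at 1147 and 824 CPM and H4 at 1826 and 1538 CPM. H2B was lower relative to canonical H2A in 21 of 22 clusters and relative to H4 in 21 of 22, whereas canonical H2A relative to H4 was lower in 12 of 22. The clusters share the same 2 libraries and are not replicates of the days.

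Histone transcripts were unevenly spread over nuclei. At 1000 UMIs per nucleus the mean number of replication-coupled UMIs was 6.03 at day 3 and 4.59 at day 4, but the medians were 3 and 1, and the highest nucleus had 81 and 85. The 10% of nuclei with the most held 50.2% of these UMIs at day 3 and 63.9% at day 4, against 39.6% and 42.1% for H3.3. Such shares depend on the mean, which was only 0.84 and 0.85 UMIs for H3.3, and are not directly comparable. The variance over the mean, which can also grow with the mean, was 15.2 and 19.4 for replication-coupled UMIs, and 1.47 and 1.82 for H3.3. At least 1 replication-coupled UMI was seen in 86.8% of nuclei at day 3 and 76.6% at day 4, before thinning in 95.6% and 91.0%. At day 3 the barcodes under 100 UMIs, mostly free RNA, held replication-coupled transcripts at 5927 CPM, close to the level in nuclei, so that a nucleus with a few UMIs cannot be read as one that expresses them.

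**Figure D5:**
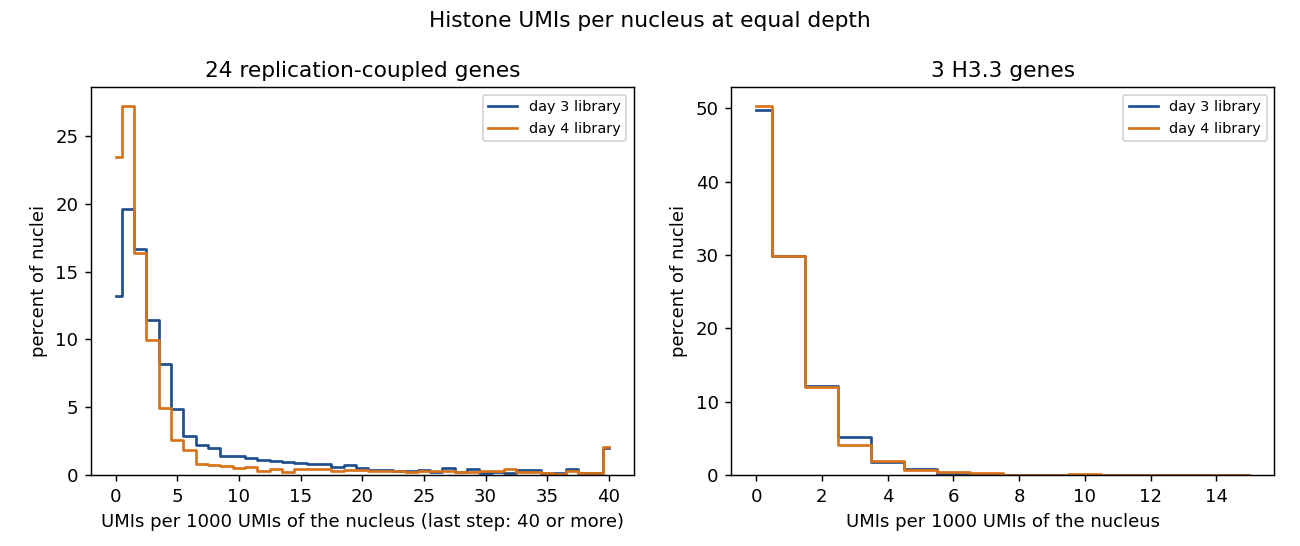
Percent of nuclei by their count of replication-coupled (left, last step 40 or more) and H3.3 (right) UMIs after thinning to 1000 UMIs, with a line for each day. Most nuclei lie at few replication-coupled UMIs, with 13.2% at 0 at day 3 against 23.4% at day 4, whereas the H3.3 lines nearly coincide.

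The days differed in the middle of this spread more than in its tail. With 10 or more replication-coupled UMIs there were 767 nuclei at day 3 (17.4%) and 512 at day 4 (11.3%), with 20 or more 345 (7.85%) and 327 (7.19%), and with 40 or more 87 (1.98%) and 95 (2.09%). Without cluster 9 there were 650 nuclei (15.7%) and 504 (11.1%) with 10 or more, and 319 (7.72%) and 326 (7.20%) with 20 or more. The limit of 10 UMIs was set after the data had been seen, and it runs through a slope: 61 and 31 nuclei had exactly 9 UMIs, 62 and 23 exactly 10. Nuclei under 10 UMIs held 2.50 such UMIs on average at day 3 and 1.71 at day 4. The part of free RNA in such low counts was not tested. The day 4 table held no barcodes under 100 UMIs from which to estimate it.

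Nuclei with 10 or more replication-coupled UMIs, chosen by the sum over the 24 genes, had a median of 18 such UMIs at day 3 and 25 at day 4. These UMIs came from a median of 11 and 12 of the 24 genes, and the number to be awaited from the choice itself was not computed. The chosen nuclei held on average 1.81 replication genes at day 3 and 1.74 at day 4, against 1.15 and 1.07 in the other nuclei. Beside the genes that chose them, they had 2.53 and 3.85 H2A.W UMIs per nucleus, against 0.20 and 0.17 in the other nuclei, and 1.62 and 2.31 of H3.3 against 0.67 and 0.67. Of H1 they had 2.28 and 2.97 UMIs per nucleus, against 0.49 and 0.40. In the replication-like cluster 56.0% of nuclei at day 3 and 54.7% at day 4 had 10 or more, in the G2/M-like class 5.51% and 2.89%.

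Of 24 genes of histone chaperones and enzymes that act on histones, all with at least 200 UMIs, 1 fell past the fold and 0 rose, against 8.26% and 4.38% of all genes, and their median log2 ratio was 0.00. The gene that fell was ATXR6, a methyltransferase of H3.1, at 24.1 CPM at day 3 and 15.3 CPM at day 4 (-0.62), followed by ATXR5, its relative, at -0.39, and UBN1, a partner of the H3.3 chaperone HIRA, at 0.32. Without cluster 9, 2 fell, ATXR6 (-0.64) and ATXR5 (-0.48). At least 2-fold higher in nuclei with at least 2 replication genes were 5 of the 24 genes on either day, against 1.12% of all genes at day 3 and 1.38% at day 4. These were ATXR6 (6.06- and 7.93-fold on CPM with 1 added), FAS1 (4.86- and 8.04-fold) and FAS2 (2.88- and 3.86-fold), subunits of the chromatin assembly factor that follows the replication fork, TSK (4.45- and 6.39-fold), which binds H3.1 at replicated DNA, and KNL2 (2.88-fold at day 4), which helps to load CENH3. Of 10 further annotated histone genes only HTB5 reached 200 UMIs.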

How the data were processed

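Nuclei were profiled with the 10x Chromium 3′ v3 kit. The authors aligned reads and made the deposited tables with Cell Ranger 3.1.0 and the Araport11 annotation; the genome build of the tables is not given in the sources used here. The deposited tables hold UMI counts, not normalized, for 6794880 barcodes at day 3 (unfiltered) and 7716 at day 4 (filtered). Barcodes with at least 1000 nuclear genes were kept after leaving out 285 organelle genes. No doublet caller was run. UMIs were summed per library, cluster or class and scaled to CPM, and log2 ratios were taken on CPM with 1 added. Clusters (scanpy 1.11.5, 3000 variable genes, 30 components, Leiden resolution 1) used no histone gene and were named from marker lists with at least 3 markers past 2-fold, and the rules for mixed and unnamed clusters were set after seeing the data. Promoters were read from RefSeq TAIR10.1. TMM factors came from edgeR 4.0.16, as a scaling alternative only. Named genes were all 39 members, with full values for the highest and lowest of each group and those past the fold. Alternatives are given with the closing section. The members and lists were chosen with earlier results of these data known, and the calculations were tested on simulated data.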

Additional observations from a re-analysis of the deposited data

Results flagged for a closer look

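Barcodes of the day 3 table with fewer than 100 UMIs, which enter no comparison of the report, held 1162647 UMIs over 562093 barcodes. In them the replication-coupled histone transcripts stood at 5927 CPM and the replacement transcripts at 1534 CPM, against 6333 and 1479 CPM in the kept nuclei of that day. The day 4 table held no such barcodes. The part of these transcripts in the levels of single nuclei was not tested.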

How the results depend on the processing

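No paired analysis was possible because there was 1 library per day and the groups share fewer than 2 replicate numbers. The replication-coupled and replacement sums kept their direction under every alternative listed here, whereas the H3.3 sum went from -0.16 to 0.05 without cluster 9. The day 4 over day 3 log2 ratio of the replication-coupled and replacement sums was -0.59 and -0.34 with TMM factors and -0.61 and -0.36 with median-of-ratios factors, which move the median of all genes by -0.09 and -0.11. It was -0.61 and -0.37 at a minimum of 1500 genes, -0.39 and -0.10 after thinning, -0.37 and -0.10 without the 8% deepest nuclei, and -0.35 and -0.070 without cluster 9, an alternative chosen after seeing the data, and for the replacement genes -0.21 at a minimum of 500 genes. The genes that fell were 15 with all nuclei, 9 without the deepest nuclei and 6 without cluster 9, or 9 without cluster 9 at the limit of all nuclei. Without cluster 9, 7 members changed sign, among them AT4G40030, AT4G40040 and HTA6, and 6 did so without the deepest nuclei.

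The fold of replication-coupled transcripts in nuclei with at least 2 replication genes over 0 was, at day 3 and day 4, 1.72 and 1.85 at 3 or more genes, 1.88 and 2.02 with genes counted before thinning, 1.65 and 1.88 at a minimum of 500 genes, 1.52 and 1.62 at 1500 genes, and 1.77 and 1.88 without the deepest nuclei. It was 1.40 and 1.54 over nuclei with no gene of either list, chosen after seeing the data, and 1.57 at day 3 without cluster 9. For the replacement genes it was 1.40 at day 4 at 3 or more genes, and at day 3 1.50 before thinning and 1.33 at 1500 genes. The members at least 2-fold higher at day 3 were 9 at 3 or more genes, 10 before thinning, 1 at 1500 genes and 9 without the deepest nuclei, and at day 4 15 before thinning.

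Between floral meristem-like and cortex and mesophyll-like nuclei the replication-coupled fold was 1.76 at day 3 and 1.89 at day 4. At day 3 it was 1.97 at Leiden resolution 0.5, 2.00 at 1.5 and 2.14 in nuclei with no replication or G2/M gene, and at day 4 2.04 at 1.5 and 2.00 in those nuclei. The replacement fold was 1.54 at day 3 and 1.48 at day 4 at resolution 0.5, and 1.59 and 1.44 in those nuclei. Before thinning 95.6% and 91.0% of nuclei had a replication-coupled UMI and 83.2% and 81.0% a replacement UMI. The cause of these shifts was not tested.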
